A study of Mus musculus with 33 samples.

Results

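The imprinted growth genes described here are 10 of the 14862 gene rows in a table of read counts from 33 single mouse heart cells. They were taken by symbol, and the table holds all 10: Igf2, H19, Dlk1, Meg3, Peg3, Mest, Grb10, Plagl1, Cdkn1c and Igf2r. The cells came from the ventricles of mice carrying the FUCCI cell cycle reporter mAG-hGem, a green fluorescent fusion of geminin that accumulates in cycling cells from S phase to mitosis. All 4 groups carry this transgene, so none is a wild type control. There were 10 mAG-hGem positive and 11 mAG-hGem negative cells from embryonic day 14.5 (E14.5), and 6 positive and 6 negative cells from postnatal day 5 (P5). Cells were dissociated with enzymes, sorted by fluorescence and screened by PCR for the cardiomyocyte gene Tnnt2, and the RNA of each was amplified as antisense RNA. Levels are counts per 1000000 (CPM), the reads of a gene per 1000000 reads counted to genes in the same cell or group. They are not divided by gene length, so levels of different genes are not compared.

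Genomic imprinting silences the copy of a gene inherited from the mother or the copy inherited from the father, so that a single parental copy is transcribed. Many imprinted genes act on growth before birth and are reduced in several organs after it. Paternally expressed members such as Igf2, a secreted insulin-like growth factor, tend to promote growth. Maternally expressed members such as Igf2r, a receptor that carries Igf2 to the lysosome, tend to restrain it. The read counts do not separate the parental copies, so imprinting itself was not measured.

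The promoters are shown because several members were lower together at P5 and because Meg3 and Peg3 had no read in any P5 positive cell. The RefSeq promoter table (GRCm38.p6) covered 8 of the 10 members with 15 windows, each from 250 bases before a transcript start to 50 bases after it. H19 and Cdkn1c are the other members. Both Meg3 and Peg3 had a window with the cAMP response element TGACGTCA, which 1.79% of all 32851 windows in the table contain. Another Meg3 window lacked it. The motifs were chosen with earlier results of these data known, so the shares given here are a description and not a test. Mest and Igf2 had windows with the GC box GGCGGG, found on either strand in 35.3% of all windows and in 9 of the 15 member windows. The 9 include overlapping Mest windows, from chr6:30737800 and chr6:30737803, that hold the same boxes. The Igf2 windows from chr7:142666767 and chr7:142661222 had none. The Meg3 window is chr12:109540746-109541045 on the plus strand, and that of Peg3 is chr7:6730370-6730669 on the minus strand. The Mest window is chr6:30737800-30738099 on the plus strand, and that of Igf2 is chr7:142657447-142657746 on the minus strand. Capitals mark matches, on either strand, to TGACGTCA, GGCGGG, the TATA element TATAAA or GGGGCCCC, a consensus of the factor Plagl1.
Meg3: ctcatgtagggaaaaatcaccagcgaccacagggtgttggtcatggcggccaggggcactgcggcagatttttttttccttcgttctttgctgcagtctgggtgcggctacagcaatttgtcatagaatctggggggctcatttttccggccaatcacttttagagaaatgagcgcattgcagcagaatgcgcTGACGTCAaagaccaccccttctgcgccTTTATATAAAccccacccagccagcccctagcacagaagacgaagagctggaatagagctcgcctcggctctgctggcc
Peg3: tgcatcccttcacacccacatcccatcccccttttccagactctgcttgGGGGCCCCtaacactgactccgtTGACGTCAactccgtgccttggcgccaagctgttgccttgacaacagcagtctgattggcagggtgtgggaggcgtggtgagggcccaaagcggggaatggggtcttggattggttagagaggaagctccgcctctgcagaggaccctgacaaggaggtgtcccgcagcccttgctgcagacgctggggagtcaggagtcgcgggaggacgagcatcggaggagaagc
Mest: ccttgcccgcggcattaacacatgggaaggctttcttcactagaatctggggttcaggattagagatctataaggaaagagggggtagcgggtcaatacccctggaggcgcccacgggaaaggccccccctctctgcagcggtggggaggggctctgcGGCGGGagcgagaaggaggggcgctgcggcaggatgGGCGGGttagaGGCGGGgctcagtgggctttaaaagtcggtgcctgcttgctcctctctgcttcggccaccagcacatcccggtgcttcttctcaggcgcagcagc
Igf2: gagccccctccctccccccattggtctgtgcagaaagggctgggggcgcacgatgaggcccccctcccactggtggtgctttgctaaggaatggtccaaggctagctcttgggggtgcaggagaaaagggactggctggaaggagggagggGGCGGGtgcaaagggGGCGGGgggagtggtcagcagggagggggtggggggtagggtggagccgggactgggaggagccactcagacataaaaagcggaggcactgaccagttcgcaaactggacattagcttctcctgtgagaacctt
TATAAA occurred in 13.6% of all windows and among the members in 1 window, that of Meg3. GGGGCCCC occurred in 1.08% of all windows and among the members in 1 window, that of Peg3. These matches describe letters in the reference and say nothing on the binding of a factor.

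The markers of cell type did not follow the label of cardiomyocyte in every cell. A cell was said to be led by the marker list with the highest summed CPM. Cardiomyocyte markers (11 genes) led at E14.5 in all 10 positive and in 10 of 11 negative cells. At P5 they led in 5 of 6 positive but in 0 of 6 negative cells. In these 25 cells they summed to between 15602 and 87519 CPM. The P5 positive cell L2P12 had 92.7 CPM of cardiomyocyte markers and 15440 CPM of endothelial markers, with 8 of 8 endothelial markers at 10 CPM or more. The P5 negative cells had 0.345 to 3288 CPM of cardiomyocyte markers, with Ldb3 at 0 in all 6. Endothelial markers led in L2N4, L2N7 and L2N9 (17801 to 32428 CPM), and red blood cell markers led in L1N3 and L2N10, which also had 22574 and 10276 CPM of endothelial markers. Fibroblast and mural markers led in L2N12 (19298 CPM) and in the E14.5 negative cell N10 (46754 CPM, beside 20584 CPM of cardiomyocyte markers). L2N12 also had 4864 CPM of epicardial markers (5 genes), with 5 of 5 at 10 CPM or more, beside 5 of 8 fibroblast and mural markers. Its leading list therefore does not settle its cell type. Total counts ran from 2545036 (L1P5) to 38465225 (G27) per cell. Genes with a read were fewest in L2N4 (2994), L1N3 (3747) and L1P5 (3991), against 5532 or more in each E14.5 cell. Whether a 0 in those P5 cells is an absent or a missed transcript was not tested. In units of 1000000 counts, the E14.5 cells summed to 158 (positive) and 196 (negative), and the P5 cells to 92.1 and 82.95. No animal is named and each sample is 1 cell, so each group counts as 1 sample, and no difference below has a test or a replicate check. Intervals are exact at 95% and cover counting error only. Cells of a group spread much more widely than these intervals.

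Between E14.5 and P5, the imprinted growth genes were lower in mAG-hGem positive cells led by cardiomyocyte markers, in every member with reads. Dlk1 had no read in either group. With L2P12 left out, 9 of the 9 members with at least 10 counts were at least 2-fold lower at P5 and 0 were higher, where 49.0% of all genes were lower and 24.5% were higher by the same rule. The members' median log2 ratio was -6.81, against -0.93 over all genes. In H19, Mest, Grb10, Plagl1 and Cdkn1c, 5 members, every P5 cell was below every E14.5 positive cell, which held for 1.24% of all genes. A gene at 0 in any E14.5 positive cell could not pass this rule, so sparsely detected genes lower that share. With L2P12 kept in, 6 members were lower and 0 were higher, against 40.9% and 30.3% of all genes, and the members' median was -1.28 against -0.39. All P5 titles and no E14.5 title start with L, so age cannot be told apart from what that letter marks.

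**Figure D1:**
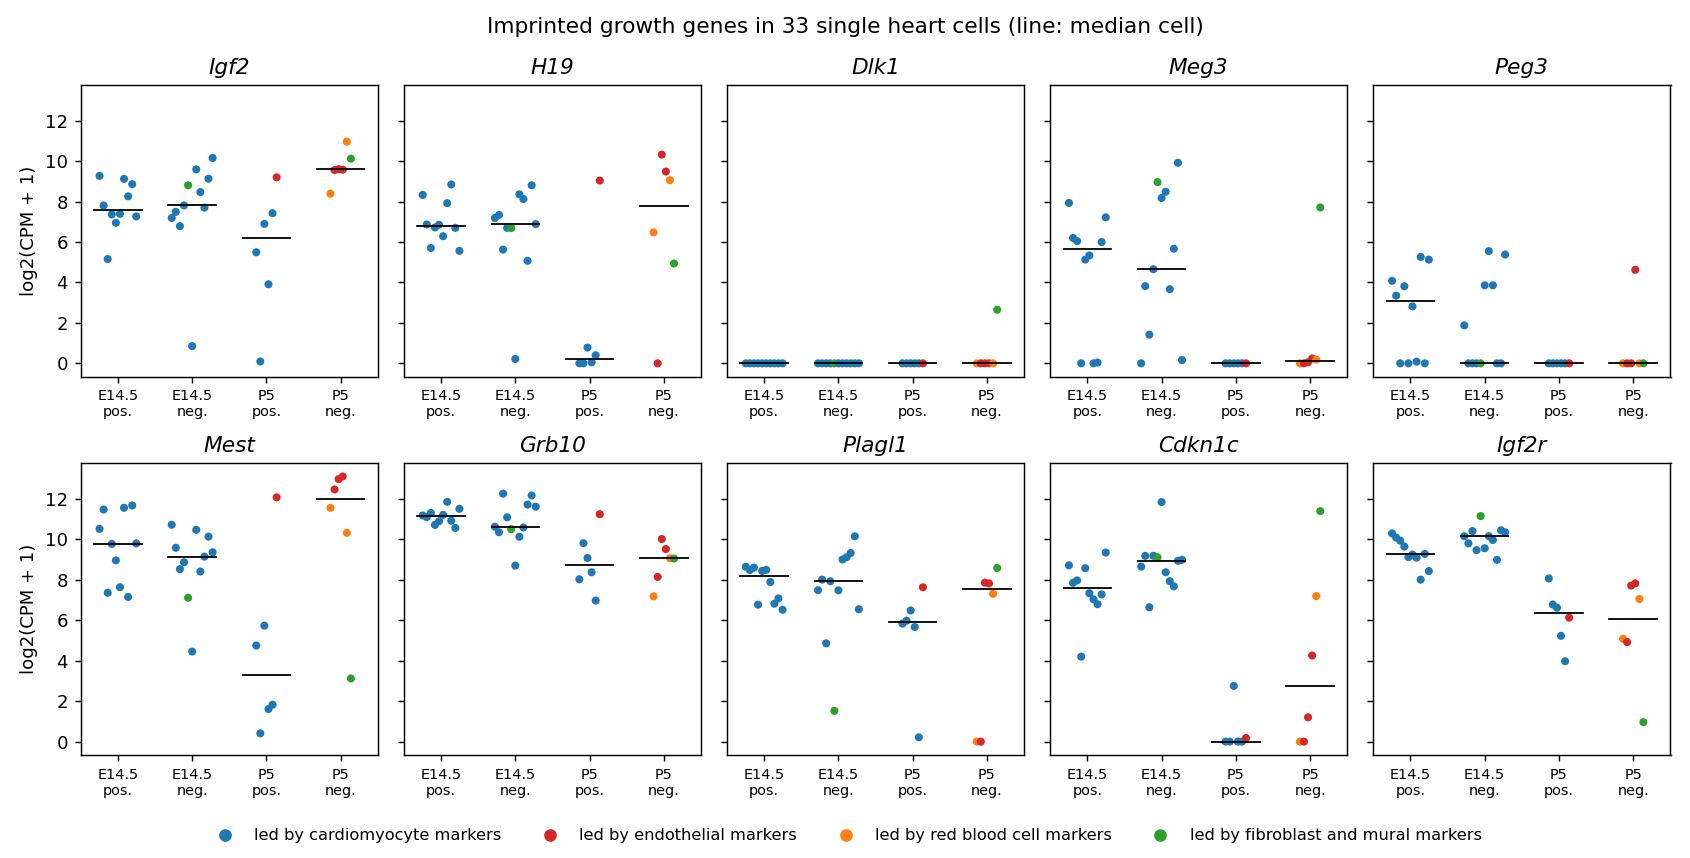
Level of each imprinted growth gene in each of 33 cells, as log2(CPM + 1), by group, with the median cell as a line and colours for the leading marker list. H19 and Mest stand high in the endothelial-led P5 positive cell (524 and 4330 CPM) and at or below 52.3 CPM in the 5 other P5 positive cells.

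Igf2 encodes the ligand of the family, which promotes growth through the receptors Igf1r and Insr. In E14.5 positive cells it ranged from 34.7 to 616 CPM with a median of 195 CPM. At P5, the 5 positive cells with leading cardiomyocyte markers had 44.0 CPM in L1P5, 0.0656 in L2P3, 118 in L2P7, 14.02 in L2P8 and 171 in L2P10. The ranges overlapped, with L2P3 alone near 0. Summed over cells, Igf2 was 301 CPM at E14.5 and 59.1 CPM at P5, a log2 ratio of -2.35 (-2.40 to -2.31). It was -3.13 without L2P10. L2P12 had 586 CPM, and with it the ratio was -0.68.

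H19, a long noncoding RNA transcribed from the maternal copy beside Igf2, was close to absent from the same cells. E14.5 positive cells had 46.2 to 459 CPM with a median of 110. The P5 cells had 0 in L1P5 and L2P3, 0.719 CPM in L2P7, 0.0374 in L2P8 and 0.318 in L2P10. These 14 reads gave 0.201 CPM, a log2 ratio of -10.00 (-10.87 to -9.25), with no overlap between the groups. The ratio, with 0.5 count added to each side, was -9.95, and it was -11.06 without L2P7, -9.35 without L2P8 and -9.23 without G27. L2P12 had 524 CPM and held 99.9% of the P5 positive reads. With it the ratio was -0.68, or 0.04 without G27.

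Mest, which encodes an enzyme of the alpha/beta hydrolase family and is expressed from the paternal copy, showed the same pattern. It ranged from 141 to 3280 CPM in E14.5 positive cells, with a median of 884 CPM. The P5 cells had 25.9 CPM in L1P5, 0.328 in L2P3, 52.3 in L2P7, 2.06 in L2P8 and 2.55 in L2P10. All 5 lay below the lowest E14.5 cell. The summed level was 1313 CPM at E14.5 and 11.7 CPM at P5, 112-fold lower, with a log2 ratio of -6.81 (-6.91 to -6.71). It was -8.89 without L2P7 and -6.21 without L2P8. L2P12 had 4330 CPM, and with it the ratio was -0.30.

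Meg3 and Peg3 had no read in any P5 positive cell. Meg3 is a maternally expressed long noncoding RNA of the Dlk1 domain, and Peg3 is a paternally expressed zinc finger protein. In E14.5 positive cells Meg3 ranged from 0 to 243 CPM with a median of 51.1 CPM, and 7 of 10 cells reached 10 CPM. Peg3 ranged from 0 to 37.4 CPM with a median of 7.60 CPM, and 4 of 10 cells reached 10 CPM. Since some E14.5 cells also lacked them, the groups overlapped at 0. Against a floor of 3 counts over the 5 P5 cells (0.0431 CPM), Meg3 was at least 1284-fold lower and Peg3 at least 370-fold lower. The bounds were 791-fold for Meg3 without L2P8 and 211-fold for Peg3 without G27. These bounds cover counting error in pooled reads only, not transcripts missed in a cell. From the median cells, with 1 CPM added, the log2 ratios were -5.70 for Meg3 and -3.10 for Peg3.

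Cdkn1c encodes p57, an inhibitor of cyclin-dependent kinases that is expressed from the maternal copy. E14.5 positive cells had 17.4 to 652 CPM with a median of 196 CPM. Among the P5 cells L2P7 had 5.75 CPM and L1P5, L2P3, L2P8 and L2P10 had 0. The summed level was 241 CPM at E14.5 and 1.03 CPM at P5, 233-fold lower, and the log2 ratio was -7.87 (-8.22 to -7.53). All 72 P5 reads came from L2P7. Without that cell Cdkn1c was at least 4591-fold lower, against a floor of 3 counts over the P5 sum, and without L2P8 the ratio was -7.16. L2P12 also lay near 0, with 0.133 CPM, so this member was low in all 6 P5 positive cells.

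Igf2r, the receptor that clears Igf2, and Grb10, an adaptor that dampens insulin and insulin-like growth factor receptors, were lower but still detected in every P5 cell. Grb10 ranged from 1516 to 3710 CPM in E14.5 positive cells with a median of 2258 CPM. The P5 cells had 260 CPM in L1P5, 898 in L2P3, 541 in L2P7, 331 in L2P8 and 125 in L2P10, all below the E14.5 range. Its log2 ratio was -2.33 (-2.34 to -2.31), or -1.28 with L2P12, which had 2428 CPM, and -0.94 with L2P12 kept and L2P8 left out. Igf2r ranged from 257 to 1257 CPM in E14.5 positive cells with a median of 615 CPM. The P5 cells had 268 CPM in L1P5, 109 in L2P3, 97.6 in L2P7, 36.6 in L2P8 and 14.7 in L2P10. L1P5 alone reached into the E14.5 range, and the log2 ratio was -3.08 (-3.13 to -3.04). With L2P12, at 69.1 CPM, it was also -3.08. Airn, an antisense transcript that overlaps Igf2r, has a row of its own, and the counting's use of strand is not stated, so reads of the pair cannot be told apart.

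Plagl1, a paternally expressed zinc finger transcription factor, was the member with the smallest difference. It ranged from 90.9 to 401 CPM in E14.5 positive cells with a median of 291 CPM. The P5 cells had 56.2 CPM in L1P5, 62.2 in L2P3, 88.6 in L2P7, 49.8 in L2P8 and 0.159 in L2P10. Thus L2P7 lay just under the E14.5 range, L1P5, L2P3 and L2P8 lay further below it, and L2P10 was near 0. The log2 ratio was -2.03 (-2.08 to -1.98), or -1.26 with L2P12, at 197 CPM. L2P10 also differed in the cycle markers (8 genes of G2 and M phase), with 19.97 CPM where the other P5 cardiomyocyte-led cells had at least 4345 CPM.

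**Figure D2:**
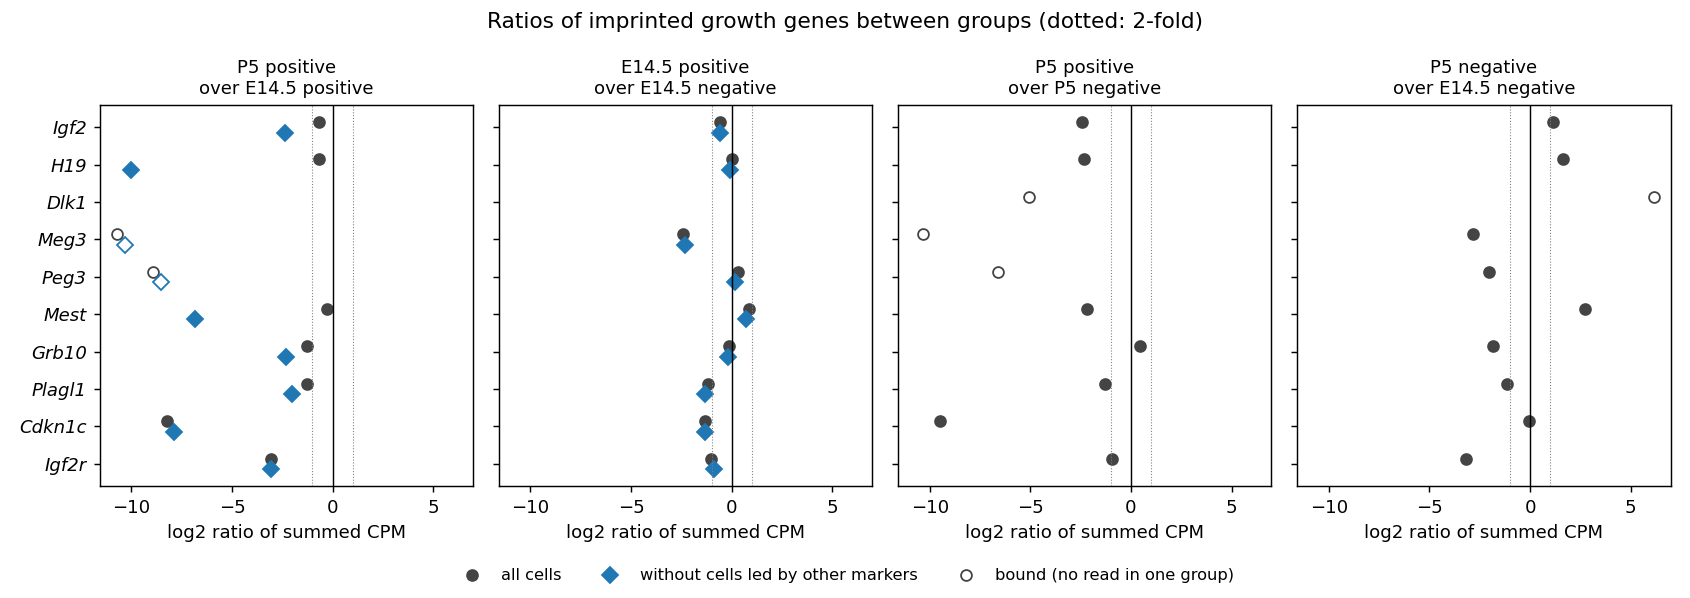
Log2 ratio of the summed CPM of each imprinted growth gene in each comparison, for all cells (grey circles) and without cells led by other markers (blue diamonds). Open symbols are bounds against a floor of 3 counts, and dotted lines mark 2-fold. Leaving out L2P12 moves Mest in the first comparison from -0.30 to -6.81.

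At E14.5, the members differed less between mAG-hGem positive and negative cells, and no member separated the groups. Of the 9 members with at least 10 counts, 4 were at least 2-fold lower in positive cells and 0 were higher, where 28.9% of all genes were lower and 22.4% were higher. Without N10 the members' counts were 3 and 0, against 27.6% and 24.1% of all genes. The members' median was -0.60, against -0.16 over all genes. The members called were Meg3, Cdkn1c, Plagl1 and Igf2r. Each call ended or shrank by over 1.5 times when a single cell was left out. This comparison shares the E14.5 positive cells with the one between ages.

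Cdkn1c, the p57 gene, ranged from 99.0 to 3679 CPM in negative cells with a median of 491 CPM, against the positive cells' median of 196 CPM. Its log2 ratio was -1.33 (-1.34 to -1.31), and -0.72 without N21, the negative cell with 3679 CPM. From the median cells it was -1.32. Cells whose titles carry numbers 1 to 10 gave -0.94, and those with 21 to 30 gave -1.48. The direction was therefore the same in each, while its size turned on N21.

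Igf2r ranged from 507 to 2279 CPM in negative cells with a median of 1141 CPM, and its log2 ratio was -1.02 (-1.03 to -1.01). It lay at the 2-fold limit and moved inside it without G27 (-0.78), G29 (-0.93), N10 (-0.86) or N28 (-0.95), and it was at the limit itself without N30. Among title numbers 1 to 10 the ratio was -0.72, and among 21 to 30 it was -1.37. Positive cells were thus lower in both subsets, with overlapping ranges.

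Meg3 and Plagl1 turned with the measure used. Meg3 ranged from 0 to 967 CPM in negative cells with a median of 24.2 CPM, below the positive cells' median of 51.1 CPM. Its summed level was higher in negative cells, 299.9 CPM against 55.3 CPM, and N28 held 56.7% of those reads. The log2 ratio was -2.44 (-2.47 to -2.41) and -1.51 without N28, while from the median cells it was 1.05. Plagl1 ranged from 1.87 to 1137 CPM in negative cells with a median of 243 CPM. Its log2 ratio was -1.20 (-1.22 to -1.18), -0.69 without N28 and at the 2-fold limit itself without G27. Its ratio was 1.38 among title numbers 1 to 10 but -2.19 among 21 to 30, so the direction differed between these subsets.

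Igf2, H19, Mest, Grb10 and Peg3 lay within 2-fold. Igf2 in negative cells ranged from 0.804 to 1140 CPM with a median of 223 CPM, and its log2 ratio was -0.60. H19 ranged from 0.161 to 447 CPM with a median of 117 CPM, with a ratio of -0.01, or -0.73 without G27. The cell N21 had the lowest Igf2, H19 and Mest (20.9 CPM) of all 21 E14.5 cells, beside the highest Cdkn1c. Mest was the member highest in positive cells relative to negative ones, at 0.85, or 0.40 without G28. Peg3 stood at 0.29, and at 1.16 without N23 or -0.52 without G27. Among title numbers 1 to 10, where N3 held all 16 reads of the negative cells, it was 4.52, and among 21 to 30 it was 0.23. Grb10 stood at -0.12.

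**Figure D3:**
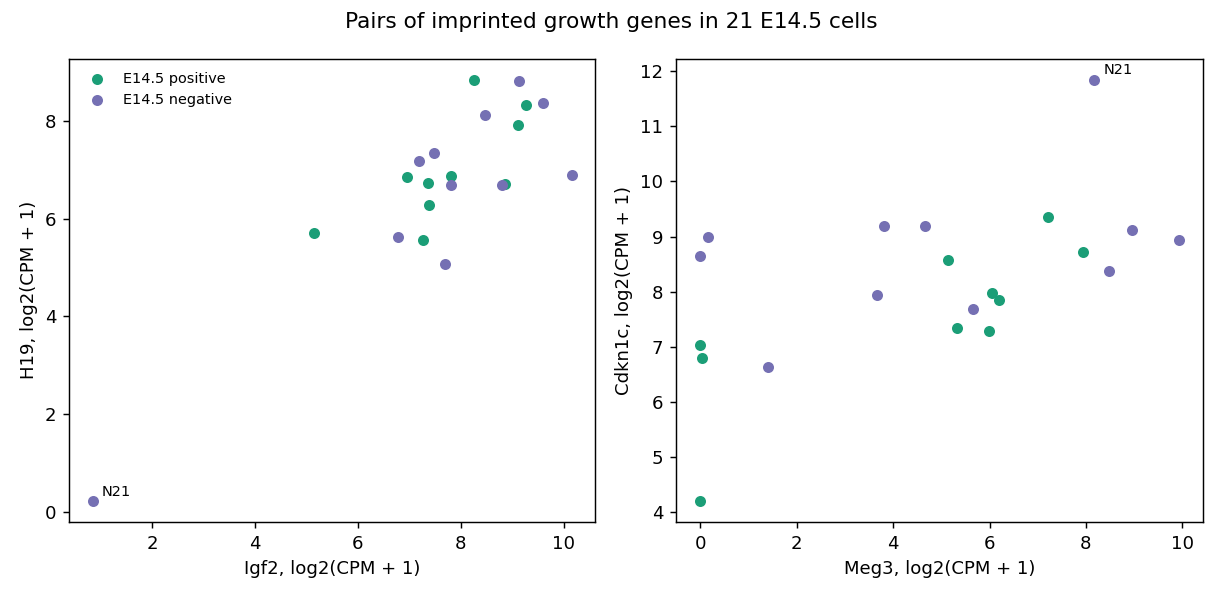
Igf2 against H19, and Meg3 against Cdkn1c, in 21 E14.5 cells, as log2(CPM + 1), with positive and negative cells in different colours. N21 stands apart at the lower left of the Igf2 and H19 panel, at 0.804 and 0.161 CPM, and at the top of the other panel.

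Across the 21 E14.5 cells, Igf2 and H19 were the most alike pair of members. The 8 members at 10 CPM or more in at least 10 of these cells gave 28 pairs, with Pearson r on log2(CPM + 1) from -0.43 to 0.86 and a median of 0.08. Igf2 and H19, neighbours on chromosome 7 with shared enhancers and opposite parental expression, had r = 0.86 and Spearman rho = 0.65. Without N21 their r was 0.60. Igf2 and Mest had r = 0.67, and 0.37 without N21. Meg3 and Cdkn1c had r = 0.54, and 0.51 without N21. Of 4865 genes compared, H19 was second to Phb2 (r = 0.87) in likeness to Igf2, and Igf2 was the first for H19, with Timm17a also at 0.86. Without N21 neither was among the other's 3 most alike genes, which were led by Gnai2 (0.79) for Igf2 and by Fam173b (0.74) for H19. Plagl1 was most like Nudt19 (0.79, and 0.80 without N21), and Igf2r was most like Ubr2 (0.72 with and without N21). These values describe cells that share groups, ages and differences in depth, and no p is given for them.

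At P5, mAG-hGem positive and negative cells also differed in cell type markers, so reporter and cell type cannot be told apart. Of the 10 members, 8 were at least 2-fold lower in positive cells and 0 were higher, where 39.4% of all genes were lower and 34.2% were higher. The members' median log2 ratio was -2.38, against -0.29 over all genes. No P5 negative cell was led by cardiomyocyte markers, so no value without the other cells could be had. Within titles that start with L2, 9 members were lower and 0 were higher. No share over all genes was taken for that subset, so its count cannot be judged against one. The P5 positive cells are also those of the comparison between ages.

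**Figure D4:**
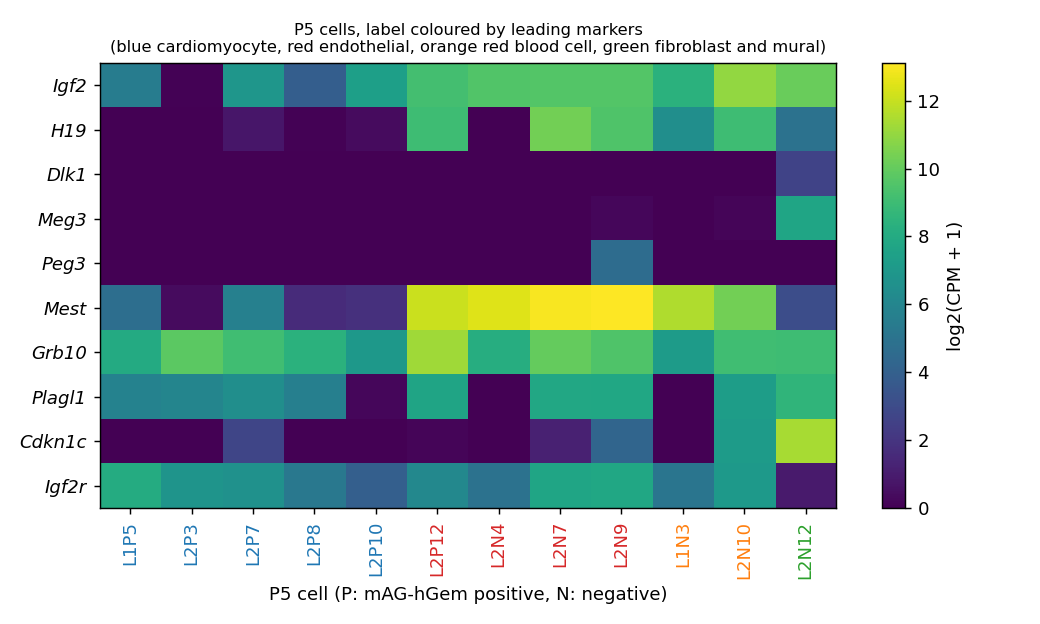
Level of each imprinted growth gene in the 12 P5 cells, as log2(CPM + 1), ordered by leading markers. Mest is at 1283 CPM or more in all 6 cells led by endothelial or red blood cell markers and at or below 52.3 CPM in the 6 others.

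Mest was high in the P5 cells led by endothelial or red blood cell markers and low in the others. The parts of reporter and cell type in this were not tested. Mest reached 4330 CPM in L2P12, 5676 in L2N4, 8082 in L2N7 and 8849 in L2N9, the cells led by endothelial markers. L1N3 and L2N10, led by red blood cell markers, had 3018 and 1283 CPM. L2N12, led by fibroblast and mural markers, had 7.71 CPM, within the range of the cardiomyocyte-led cells. The log2 ratio of positive over negative cells was -2.16, or -8.68 without L2P12 and -1.52 without L2N7.

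Igf2 was 334 CPM in L1N3, 752 in L2N4, 776 in L2N7, 764 in L2N9, 1994 in L2N10 and 1113 in L2N12. All 6 negative cells were above the 5 cardiomyocyte-led positive cells, whose highest was 171 CPM. H19 was 88.0 CPM in L1N3, 0 in L2N4, 1277 in L2N7, 716 in L2N9, 532 in L2N10 and 29.6 in L2N12. L2N4 thus had Igf2 without an H19 read, though it had the fewest genes with a read of all 33 cells (2994). The log2 ratio of Igf2 was -2.44, or -4.10 without L2P12. That of H19 was -2.32, or -11.58 without L2P12 and -1.26 without L2N7.

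Cdkn1c, Meg3 and Dlk1 were high or present in a single P5 cell, L2N12. Dlk1 encodes a transmembrane protein related to the Notch ligands. Its 89 reads in the whole table came from L2N12, at 5.28 CPM. That cell was led by fibroblast and mural markers but also had 5 of 5 epicardial markers at 10 CPM or more. L2N12 had 208 CPM of Meg3, whose other P5 negative cells held 5 reads in all, and 2699 CPM of Cdkn1c, where the next cell, L2N10, had 146 CPM. Igf2r was at 0.949 CPM in L2N12, the lowest of all 33 cells. The log2 ratio of Cdkn1c was -9.47 (-9.82 to -9.14), or -5.44 without L2N12, -10.06 without L2N7 and -13.90 (-16.18 to -12.35) without L2P7, from 3 reads. Meg3 was at least 1300-fold lower and Dlk1 at least 32.95-fold lower in positive cells. Without L2N12 the bound for Meg3 was 2.32-fold, and Dlk1 had no read in either group.

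Peg3 had reads in L2N9 alone among the P5 cells, at 23.7 CPM, which makes it at least 96.6-fold lower in positive cells. Without L2N9 it had no read in either group. Plagl1 was 0 in L1N3 and L2N4, the P5 negative cells with the fewest genes with a read (3747 and 2994). It was 158 to 383 CPM in the other P5 negative cells. Its log2 ratio was -1.31, -2.08 without L2P12 and -0.99 without L2N12. Igf2r stood at -0.92. Grb10 was the only member whose summed CPM was higher in P5 positive than in P5 negative cells, at 0.45, and it was -0.59 without L2P12.

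Between E14.5 and P5 in mAG-hGem negative cells, the members moved in both directions, beside a change in leading markers from cardiomyocyte to other cell types. Of 10 members, 4 were at least 2-fold higher at P5 and 5 were lower, against 33.5% and 41.7% of all genes, which are near the members' own shares. Mest (2.71, or 2.06 without L2N7), Dlk1 (at least 69.9-fold, from L2N12 alone), H19 (1.62, or 0.56 without L2N7) and Igf2 (1.16, or 0.83 without L2N10) were higher. Igf2r (-3.17) and Grb10 (-1.85) were lower, as was Meg3, at -2.82, -1.90 without N28, -2.22 without L2N7 and -11.82 without L2N12. Peg3 was lower by the same rule, at -2.05, -1.18 without N23 and -1.44 without L2N7. L2N9 held all its P5 reads, and without that cell it was at least 313-fold lower. Plagl1 stood at -1.14, or -0.63 without N28. Cdkn1c stood at -0.07, or -4.09 without L2N12.

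Other genes of imprinted domains were counted in the same comparison of cardiomyocyte-led positive cells, in which 49.0% of all genes were at least 2-fold lower at P5, 24.5% were higher and the median of all genes was -0.93. Of 44 genes listed, 36 were in the table and 25 had at least 10 counts without L2P12: 18 were at least 2-fold lower, 1 was higher, and the median log2 ratio was -2.08. Kcnq1ot1, the noncoding RNA that silences the domain of Cdkn1c on the paternal copy, went from 187 CPM to a single read, a log2 ratio of -13.67 (-18.97 to -11.19), or -9.03 with L2P12 kept. That read was in L2P8, and without this cell the level was at least 2668-fold lower. Cdkn1c and Kcnq1ot1 were therefore both near 0 in the sum of these P5 cells, and the domain as a whole was not examined. Ndn, a paternally expressed growth suppressor of the Prader-Willi domain, stood at -2.10, with 1 of 5 P5 cells at 10 CPM or more. It was at -1.15 without G27 and, from 4 reads, at -11.64 without L2P8. Airn, which overlaps Igf2r, stood at 0.42, with all its P5 reads in L2P8, and without that cell it was at least 759-fold lower.

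Genes listed around insulin-like growth factors, from ligands and receptors to binding proteins and regulators, moved in both directions. Of 28 genes of the insulin-like growth factor axis in the table, 23 had at least 10 counts without L2P12: 14 were lower, 4 were higher, and the median was -1.54, beside 49.0%, 24.5% and -0.93 over all genes. Igf1r, the receptor that transmits the Igf2 signal, went from 203 to 7.68 CPM (-4.72), and 2 of 5 P5 cells reached 10 CPM. Its ratio was -5.63 without L2P8 and -3.66 with L2P12 kept. Igf2bp2, which binds Igf2 messenger RNA, went from 87.8 to 1.29 CPM (-6.09), or -5.38 without L2P8 or G5 and -3.88 with L2P12 kept. L2P7 held all its P5 reads here, and without that cell it was at least 1670-fold lower. Igf1, the related ligand that dominates after birth, went from 36.9 to 162 CPM (2.13), with 3 of 5 P5 and 3 of 10 E14.5 cells at 10 CPM or more, and its ratio was 4.05 without G27. Grb2, an adaptor of receptor tyrosine kinases, went from 19.1 to 86.2 CPM (2.17, or 1.17 without L2P8). Of the ligands, Igf2 was thus lower and Igf1 higher in the P5 sum.

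Among 10 factors that maintain imprints or bind insulators, 7 had at least 10 counts in the same comparison, of which 3 were lower and 2 were higher, with a median of -0.73. Over all genes the shares were 49.0% and 24.5% and the median -0.93, which are near the list's own values. Zfp445, a zinc finger protein that protects imprinting control regions, went from 157 to 1.01 CPM (-7.28), and no P5 cell reached 10 CPM. It was at -6.57 without L2P8 and -5.61 with L2P12 kept. L2P7 held all its P5 reads here, and without that cell it was at least 2982-fold lower. Smchd1, a chromatin protein that keeps imprinted clusters silent, stood at -1.80, or -4.05 without L2P8, but at 0.62 with L2P12 kept, so L2P12 turned its direction. Setdb1, a histone H3 lysine methyltransferase, stood at 2.13, with 3 of 5 P5 cells at 10 CPM or more, and at -0.46 without L2P8 and 3.84 without G6.

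In GRCm38, the build that matches the mm10 of the submitters' notes, Igf2 lies at chr7:142650766-142666816 and H19 at chr7:142575529-142578143, with Cdkn1c further along at chr7:143458339-143461050, all on the minus strand. Dlk1 and Meg3 are neighbours at chr12:109452823-109463336 and chr12:109541001-109571726 on the plus strand. Peg3 lies at chr7:6703892-6730431 (minus), Mest at chr6:30723547-30748465 (plus), Grb10 at chr11:11930508-12038683 (minus), Plagl1 at chr10:13060504-13131694 (plus) and Igf2r at chr17:12682406-12769664 (minus). H19 and Meg3 are annotated as long noncoding RNAs and the other 8 as protein coding. Mest also overlaps Copg2 on the opposite strand, which had 0.172 CPM in the 5 cardiomyocyte-led P5 cells. Igf2, H19, Meg3, Plagl1 and Cdkn1c overlap annotated transcripts on the opposite strand too, whose reads could not be told apart from theirs.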

How the data were processed

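Reads were mapped and counted by the authors with CASAVA 1.8.2, STAR 2.4.0j and HTSeq 0.6.1p1 on mm10, per the submitters' processing notes, which give neither the role nor the settings of each tool. The deposited values are raw read counts per gene, whole numbers that sum to between 2545036 and 38465225 per cell. The annotation, the use of strand and any molecular identifiers are not given in the sources used here. Antisense amplification copies each molecule many times, so intervals and floors cover counting error only.

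Cells were grouped by the labels' stage and reporter. Since no animal is named, each group is 1 sample and was not tested. A group's CPM is its pooled count of a gene over its pooled total, with an exact Poisson interval. Log2 ratios have exact Clopper-Pearson intervals, with 0.5 count added to each side only for calls, alternatives and values that leave out a cell. A gene was called past 2-fold with at least 10 counts over both groups, and a group at 0 was set to a floor of 3 counts. All 10 members are named. From the other lists the 2 highest and 2 lowest ratios at 50 CPM or more in the higher group are candidates for naming, and for likeness the 3 genes of highest r. In these lists the ratios printed have no added count. Igf2bp2, Kcnq1ot1 and the other named genes follow that rule, except Copg2, named as the overlap partner of Mest. The members, lists and motifs were chosen with earlier results of these data known. The 22 rows whose names had become dates stayed in the totals and out of the background.

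Alternatives were equal weights, median cells, edgeR 4.0.16 TMM and DESeq2 1.42.0 size factors (R 4.3.3), totals without the 20 most abundant genes, thinning to 8671357 counts (6 cells left out), a 4-fold limit, no minimum of counts, each cell left out, and subsets by title. Other steps used Python 3.11.15 with numpy 2.4.6, scipy 1.17.1, pandas 2.3.3 and matplotlib 3.10.9. The ratio calculation was tested on simulated data with counting error only and known changes in abundant genes. That test therefore covers the arithmetic, not the spread between cells or sparsely detected members.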

Additional observations from a re-analysis of the deposited data

Results flagged for a closer look

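Each member was checked in the 3 groups of 4 to 10 cells for a cell whose distance from its nearest neighbour was large against the range of its group, on log2(CPM + 1). Of 26 combinations with any read, 8 had such a cell. Chance gives about 1 in 20 for values spread continuously, a rate that does not hold for groups with many cells at 0. For Dlk1 and Peg3 in P5 negative cells a single cell had reads, so the gap equals the range by construction. The group of 11 E14.5 negative cells was not checked.

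Among P5 positive cells, H19 was at 524 CPM in L2P12, where the next highest cell, L2P7, had 0.719 CPM. L2P12 was led by endothelial markers. Cdkn1c was at 5.75 CPM in L2P7, with 0.133 CPM in the next cell. Plagl1 was at 0.159 CPM in L2P10, where the next lowest cell, L2P8, had 49.8 CPM.

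Among P5 negative cells, L2N12, led by fibroblast and mural markers, was highest in Meg3 (208 CPM, with 0.182 CPM next) and in Dlk1 (5.28 CPM, with 0 next), and lowest in Mest (7.71 CPM, with 1283 CPM next). Peg3 was at 23.7 CPM in L2N9 and at 0 in the other cells. The part of cell type in these values was not tested.

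Among E14.5 positive cells, Cdkn1c was lowest in G6, at 17.4 CPM, where the next lowest cell, G27, had 110.2 CPM.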

How the results depend on the processing

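The number of members at least 2-fold higher in E14.5 positive than negative cells (0) became 2 from median cells and 2 within title numbers 1 to 10, and 0 to 2 with each cell left out. The number lower (4) became 2 with equal weights, 1 from median cells, 2 after thinning, 1 at 4-fold, 1 within title numbers 1 to 10 and 2 to 4 with each cell left out. Of 1082 alternative ratios of members, 3 that had been called changed sign, all between the E14.5 groups: Meg3 from median cells (1.05), and Plagl1 from median cells (0.26) and within title numbers 1 to 10 (1.38). Between the P5 groups the 8 members lower became 5 from median cells and 6 to 9 with each cell left out. Between negative cells of both ages, a 4-fold limit left 2 higher and 3 lower, and leaving out each cell gave 3 to 4 and 4 to 6. Between positive cells of both ages, 5 to 9 members were lower with each cell left out. Without L2P12, all 9 stayed at least 2-fold lower in every alternative run, chosen after seeing the data. By totals all 9 also passed the 4-fold limit, for which no share over all genes was taken. With DESeq2 size factors Igf2 (-1.80), Grb10 (-1.77) and Plagl1 (-1.47) fell inside that limit. So did Igf2 without L2P8 (-1.79) and Plagl1 without L2P10 (-1.74). DESeq2 size factors moved the all-gene median of that comparison from -0.93 to -0.37 and the members' from -6.81 to -6.26. No paired analysis was possible because replicate numbers only follow accession order and pair no cells. With 0 counts, up to 3 counts over a group remain possible, which sets the bounds for Dlk1, Meg3 and Peg3.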
